A study of Mus musculus with 79 samples.

Results

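The transcription factors and non-coding RNAs described here are the Dlx genes Dlx1, Dlx2, Dlx5 and Dlx6, the antisense transcripts Dlx1as and Dlx6os1, the interneuron transcription factors Prox1, Sp9 and Nr2f2, and the RNA-editing family gene Adarb2. They were chosen by name as genes of interneuron identity. The 10 symbols correspond to 11 rows of a count table of 55335 genes, because Dlx6os1 has a row for a long antisense transcript and a row for a short RNA annotated separately.

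RNA was measured in 79 libraries of nuclei from mouse visual cortex, in 10 groups, to ask what silencing cortical neurons does to their transcripts during dark housing. All mice were heterozygous (wt/ki) for INTACT, a Cre-dependent tag of the nuclear membrane, and for VIP Cre, and every library is labelled as 10 days of dark housing. The protocol text common to all libraries also allows for tissue taken after a short return to light, and no label says whether any library comes from such tissue. Mice were injected in the visual cortex at postnatal days 55 to 60 with an adeno-associated virus (AAV), AAV-Syn1-Kir2.1-2a-mScarlet-KASH, or with the same construct carrying Kir2.1(Mutant), or received no AAV. Dark housing of the injected mice began 3 days after injection. Kir2.1 is an inward-rectifier potassium channel whose overexpression lowers neuronal excitability, the Syn1 promoter drives it in neurons, and mScarlet-KASH marks the nuclei of transduced cells. From Kir2.1 mice there are 10 libraries of VIP nuclei that took up the vector (transduced), 10 of VIP nuclei that did not (non-transduced), 8 of transduced neurons of any kind and 10 of unselected nuclei without the vector, called all nuclei. Mutant mice contributed 9, 9, 8 and 9 libraries of these populations. Uninjected mice contributed VIP nuclei (3 libraries) and all nuclei (3 libraries); these are male, whereas the injected groups mix the sexes. Each library holds 50 to 100 sorted nuclei. Titles number the libraries as biological replicates, but no label ties a library to an animal or says how many mice were used, so p-values reflect the spread from library to library, part of which may be technical.

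Dlx proteins are homeodomain transcription factors that switch on the GABAergic programme in the embryonic ganglionic eminences, and their genes lie in convergently transcribed pairs, Dlx1 with Dlx2 and Dlx5 with Dlx6. Some members of the family stay on in mature cortical interneurons. Prox1 and Nr2f2 (COUP-TFII) mark interneurons born in the caudal ganglionic eminence, to which the VIP class belongs. Adarb2 encodes ADAR3, a brain-restricted relative of the adenosine deaminases acting on RNA that lacks editing activity, and is a marker of the same interneurons.

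Total counts ran from 3219899 to 9267246 per library. Levels are given as CPM (each count relative to its library's total) scaled by edgeR's trimmed mean of M values (TMM). Kcnj2, the gene that encodes Kir2.1, averaged 588 ± 224 CPM in transduced VIP nuclei with Kir2.1 and 766 ± 307 CPM with the mutant, against 15.3 ± 8.37 and 22.8 ± 8.06 CPM in non-transduced VIP nuclei of mice given the same vector (SD, n = 10, 9, 10 and 9). Vip itself had at least 703 CPM in every library of VIP nuclei and at most 7.70 CPM in every library of transduced neurons. The libraries Kir2.1 VIP transduced 1, Kir2.1 VIP non-transduced 9 and mutant VIP transduced 1 correlated least with their groups (0.946, 0.935 and 0.956, limit 0.956), and each comparison that holds them was also fitted without them. Of 110 results for a row in a comparison, 108 then kept their side of the threshold. These include the 5 rows tested in transduced neurons and the 8 in all non-transduced nuclei. Those fits hold none of these libraries, so their results could not change. The 2 that changed side, both for Dlx6, are given below.

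The promoters shown are those of the rows that were lower in Kir2.1 transduced VIP nuclei, as far as the RefSeq promoter table (GRCm38.p6, the assembly of mm10) holds them: 1 for Dlx1, 2 for Dlx6os1 and 1 for Adarb2. Each runs from 250 bases before to 50 bases after an annotated start, 5′ to 3′ on the strand of the gene. The Dlx1 and Dlx6os1 windows lie inside the spans of these rows given below, not at their 5′ ends. The Adarb2 window is at the start of its span. Capitals mark TAATTA, the core that Dlx homeodomains bind, searched on both strands.
Dlx1, chr2:71529195-71529494, + strand: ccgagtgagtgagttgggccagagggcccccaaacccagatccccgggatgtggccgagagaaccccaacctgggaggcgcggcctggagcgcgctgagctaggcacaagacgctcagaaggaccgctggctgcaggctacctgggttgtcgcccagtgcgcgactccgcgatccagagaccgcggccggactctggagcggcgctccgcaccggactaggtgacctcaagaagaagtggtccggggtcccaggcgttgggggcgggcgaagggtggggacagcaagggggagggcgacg
Dlx6os1, first start, chr6:6869484-6869783, − strand: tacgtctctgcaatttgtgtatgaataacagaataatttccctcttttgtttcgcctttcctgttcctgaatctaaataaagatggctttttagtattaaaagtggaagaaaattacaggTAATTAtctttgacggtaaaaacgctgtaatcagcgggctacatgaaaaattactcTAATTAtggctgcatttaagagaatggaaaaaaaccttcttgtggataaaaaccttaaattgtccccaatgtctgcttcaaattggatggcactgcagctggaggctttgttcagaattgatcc
Dlx6os1, second start, chr6:6861634-6861933, − strand: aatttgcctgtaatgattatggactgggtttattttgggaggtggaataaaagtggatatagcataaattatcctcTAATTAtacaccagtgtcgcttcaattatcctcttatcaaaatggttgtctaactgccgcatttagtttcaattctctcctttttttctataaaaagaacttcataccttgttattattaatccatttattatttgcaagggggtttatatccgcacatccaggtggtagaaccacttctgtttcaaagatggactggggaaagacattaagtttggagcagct
Adarb2, chr13:8202616-8202915, + strand: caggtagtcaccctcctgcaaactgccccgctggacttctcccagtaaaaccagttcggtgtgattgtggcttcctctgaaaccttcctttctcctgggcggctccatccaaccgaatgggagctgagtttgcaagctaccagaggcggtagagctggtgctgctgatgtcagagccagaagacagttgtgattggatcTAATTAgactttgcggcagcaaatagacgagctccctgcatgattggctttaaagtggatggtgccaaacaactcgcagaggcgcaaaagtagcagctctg
TAATTA lies 130 and 74 bases before the first Dlx6os1 start, 174 bases before the second, and 51 bases before the Adarb2 start. The letters are not in the Dlx1 window shown, nor in the windows of Dlx2, Sp9, Nr2f2 or Prox1. Of all 32851 promoters in the table, 5.29% hold TAATTA. TGACGTCA, the cyclic AMP response element, was found in 1.79% of all promoters, TGANTCA, the AP-1 site, in 7.81%, and neither in any of the 9 promoters of these genes. A match describes the letters and does not show binding.

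All rows but Sp9 were higher in VIP nuclei than in unselected nuclei. Across the non-transduced libraries and those without AAV, 10 of 11 rows were higher in VIP nuclei (22 libraries) than in all nuclei (22 libraries), where 32.6% of the 22855 genes tested differed and 12.8% were higher (edgeR's quasi-likelihood test, Benjamini-Hochberg adjusted p under 0.05, here and below). Dlx1 averaged 103 ± 21.9 CPM in VIP nuclei and 4.26 ± 2.84 CPM in all nuclei, a 24.4-fold difference (log2 4.61 ± 0.29 SE, adjusted p = 2.28e-19). Adarb2 differed most, 44.7-fold, with 11311 ± 3560 CPM in VIP nuclei and 256 ± 239 CPM in all nuclei. The long row of Dlx6os1 was 28.5-fold higher, Dlx6 31.4-fold, Dlx2 30.9-fold and Prox1 10.9-fold. Nr2f2 was 13.4-fold higher, the short row of Dlx6os1 33.7-fold, Dlx5 7.73-fold and Dlx1as 7.55-fold. For Dlx1, Dlx1as, Dlx6, the long row of Dlx6os1, Prox1, Nr2f2 and Adarb2 the lowest library of VIP nuclei lay above the highest library of all nuclei, as it did for 0.849% of genes. Sp9, a zinc-finger factor of immature interneurons, was the exception, at 1.04 ± 1.26 CPM in VIP nuclei and 0.554 ± 0.605 CPM in all nuclei (log2 1.01 ± 0.74 SE, adjusted p = 0.329). Dlx2 was low but present in each of these 22 libraries of VIP nuclei, at 1.31 CPM or more. Without the libraries that stand apart, Dlx1 differed by log2 4.62, Adarb2 by 5.47 and Prox1 by 3.42.

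**Figure D1:**
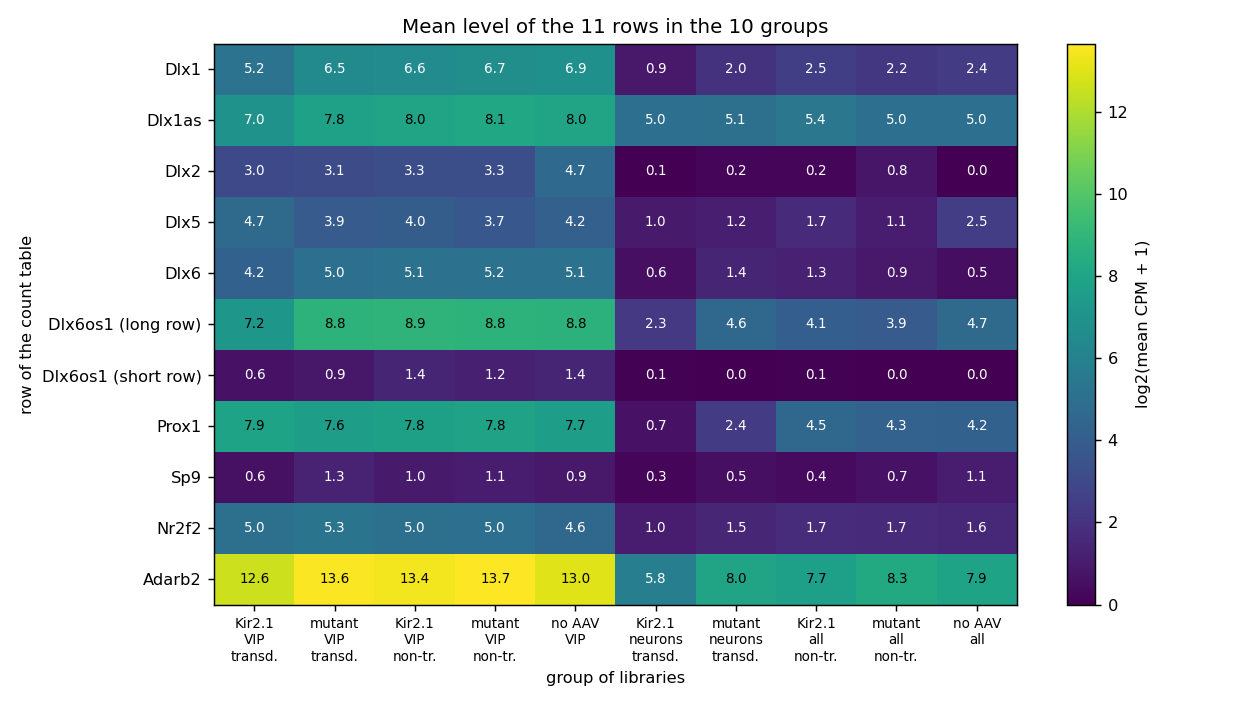
Mean level of each of the 11 rows (down) in each of the 10 groups (across), as log2(mean CPM + 1), with non-tr. for non-transduced and transd. for transduced. Every row except Sp9 is brighter in the 5 groups of VIP nuclei on the left, and within a row the Kir2.1 transduced column is darker than the other VIP columns for Dlx1, Dlx1as, Dlx6, the long Dlx6os1 row and Adarb2; colours compare groups within a row, not rows with each other, since transcripts differ in length.

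In Kir2.1 transduced VIP nuclei, part of this set was lower and part was not. With Kir2.1, 4 of 11 rows were lower than with the mutant in transduced VIP nuclei: Dlx1, Dlx1as, the long row of Dlx6os1 and Adarb2. No row was higher. Among all 21207 genes tested 1.39% changed, 1.03% being lower. The median log2 fold change of the 11 rows was −0.77, beside 0.04 over all genes tested. Because each library pools nuclei, fewer nuclei with a transcript and less RNA per nucleus cannot be told apart.

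Dlx1 (chr2:71528113-71533981, + strand, mm10) maintains dendrites and survival of mature interneurons. In Kir2.1 transduced VIP nuclei its lowest library had 18.2 CPM, the median 35.5 and the highest 64.1, against 63.6, 85.0 and 124 CPM in mutant transduced VIP nuclei. Of the 10 Kir2.1 libraries, 9 lay below the lowest mutant library, so the groups overlap by 1 library. Dlx1 averaged 36.0 ± 13.7 CPM with Kir2.1 and 88.3 ± 18.8 CPM with the mutant (SD, n = 10 and 9), 2.43-fold lower (log2 −1.28 ± 0.19 SE, adjusted p = 6.10e-06). Dlx1as, annotated on the opposite strand, has no coding sequence. It had 92, 128 and 192 CPM (lowest, median, highest) with Kir2.1, against 176, 207 and 295 CPM with the mutant. Again 9 of 10 Kir2.1 libraries lay below every mutant library, and the level was 1.74-fold lower (log2 −0.80 ± 0.15 SE, adjusted p = 0.000415). Dlx2, whose product acts redundantly with that of Dlx1 in the embryo, had 0.227, 5.99 and 14.5 CPM with Kir2.1, against 3.06, 6.93 and 17.1 CPM with the mutant. The Dlx2 groups overlap widely, and its difference did not pass (log2 −0.10 ± 0.48 SE, adjusted p = 0.985).

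The long row of Dlx6os1 (chr6:6820189-6871592, − strand), known as Evf2 in one of its forms, is an antisense RNA that regulates Dlx5, Dlx6 and Gad1 in the embryonic forebrain. It had 111, 138 and 219 CPM with Kir2.1, against 192, 453 and 613 CPM with the mutant. All but 2 Kir2.1 libraries lay below every mutant library. The lowest mutant library, mutant VIP transduced 1, is among the 3 libraries that correlated least with their groups. The row averaged 150 ± 37.4 CPM with Kir2.1 and 446 ± 136 CPM with the mutant, 2.95-fold lower (log2 −1.56 ± 0.20 SE, adjusted p = 8.87e-07), and ranked 6 by p among all genes tested. Dlx6, which lies entirely inside the long Dlx6os1 row on the other strand, averaged 17.8 ± 5.08 CPM with Kir2.1 and 30.7 ± 8.87 CPM with the mutant. Its difference missed the threshold (log2 −0.77 ± 0.24 SE, adjusted p = 0.0852), and passed it without the libraries that stand apart (−0.87, adjusted p = 0.0496), without mutant VIP transduced 1 alone (−0.88, adjusted p = 0.0445) and with DESeq2 (−0.77, adjusted p = 0.0278). Dlx5, the partner of Dlx6, had a positive estimate: 4.57, 23.2 and 53.8 CPM with Kir2.1, against 0, 16 and 22.4 CPM with the mutant (log2 0.82 ± 0.44 SE, adjusted p = 0.501). The short row of Dlx6os1 had 33 counts over the 10 Kir2.1 libraries and 37 over the 9 mutant libraries (log2 −0.56 ± 1.03 SE, adjusted p = 0.934).

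**Figure D2:**
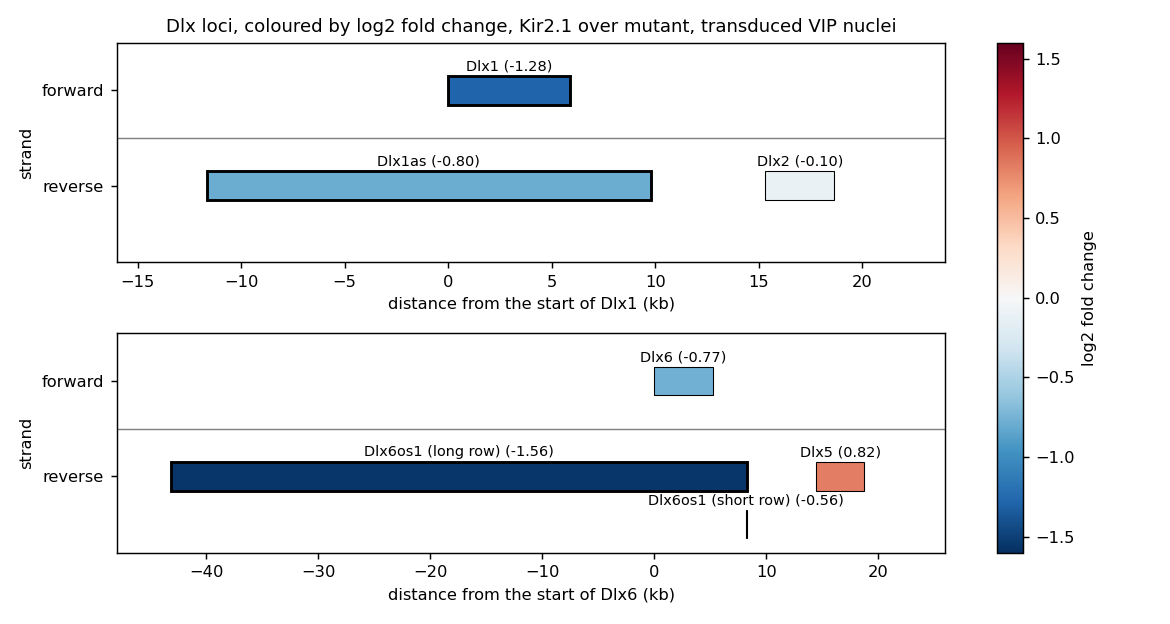
Map of the 2 Dlx loci with the Dlx1 pair above and the Dlx5 and Dlx6 pair below, as distance in kb from the annotated start of Dlx1 or Dlx6. Boxes are gene spans on the forward or reverse strand, coloured and labelled by log2 fold change of Kir2.1 over mutant in transduced VIP nuclei, with thick outlines where the adjusted p is under 0.05. The antisense rows span Dlx1 and Dlx6, while Dlx2 and Dlx5 lie outside them. Dlx2, Dlx5, Dlx6 and the short Dlx6os1 row did not pass the test.

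Reads of overlapping genes cannot be assigned to a strand here, because the library kit does not mark strand and the counting settings are not given in the sources used here. Dlx1 lies wholly inside Dlx1as, and 335 exonic bases are shared, 6.21% of the Dlx1 exons and 20.6% of the Dlx1as exons. Dlx6 lies wholly inside the long Dlx6os1 row but shares 0 exonic bases with it. The Dlx1 and Dlx1as values, and the Dlx6 and Dlx6os1 values, may therefore hold some of the same transcript. Metap1d, a methionine aminopeptidase gene that overlaps the other end of Dlx1as by 8741 bases, averaged 199 ± 28.4 CPM with Kir2.1 and 227 ± 32.9 CPM with the mutant, and did not pass (log2 −0.18 ± 0.14 SE, adjusted p = 0.755). None of the 6 protein-coding neighbours of the Dlx genes within 300 kb passed: Slc25a12, Hat1, Metap1d, Itga6, Sem1 and Sdhaf3 had a median log2 fold change of −0.23.

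Adarb2 (chr13:8202866-8768747, + strand) had 3781, 5841 and 10245 CPM with Kir2.1, against 7817, 12013 and 16604 CPM with the mutant. Of the 10 Kir2.1 libraries, 8 lay below every mutant library. Adarb2 averaged 6223 ± 2090 CPM with Kir2.1 and 12250 ± 2561 CPM with the mutant, 1.95-fold lower (log2 −0.97 ± 0.17 SE, adjusted p = 0.000146). Gm48259 and Gm48261, provisional gene models inside Adarb2 introns on its strand that share 0 bases with its exons, were also lower. Gm48261 had 75.5 ± 30.6 CPM with Kir2.1 and 167 ± 46.2 CPM with the mutant (log2 −1.14 ± 0.23 SE, adjusted p = 0.00146), and Gm48259 had 97.7 ± 43.0 CPM and 191 ± 72.0 CPM in the same groups (log2 −0.95 ± 0.24 SE, adjusted p = 0.0280). In nuclear RNA such models can hold reads of the unspliced host transcript. Inside the long Dlx6os1 row, the small models Gm44094 (adjusted p = 0.0100) and Gm27699, whose 180 bases are shared with the Dlx6os1 exons (adjusted p = 0.0398), were lower too, at averages of 0.0388 and 1.36 CPM with Kir2.1, against 1.78 and 6.0 CPM with the mutant. In all, 4 of the 13 tested genes that overlap one of the 11 rows were lower and 0 were higher.

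The remaining regulators did not pass. Prox1, a homeodomain factor that caudal interneurons need to mature and integrate, had 178, 222 and 391 CPM with Kir2.1, against 174, 188 and 245 CPM with the mutant. Its estimate was positive (log2 0.31 ± 0.14 SE, adjusted p = 0.361) and the groups overlap. Prox1os, antisense to Prox1, had a like estimate (log2 0.31 ± 0.17 SE, adjusted p = 0.547). Nr2f2 had 11.8, 35.4 and 43.5 CPM with Kir2.1, against 15.2, 33.8 and 52.7 CPM with the mutant (log2 −0.23 ± 0.25 SE, adjusted p = 0.860). Sp9 had 42 counts over 10 libraries with Kir2.1 and 69 over 9 with the mutant (log2 −1.38 ± 1.21 SE, adjusted p = 0.795), and stayed at or below 3.37 CPM in every library of both groups.

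**Figure D3:**
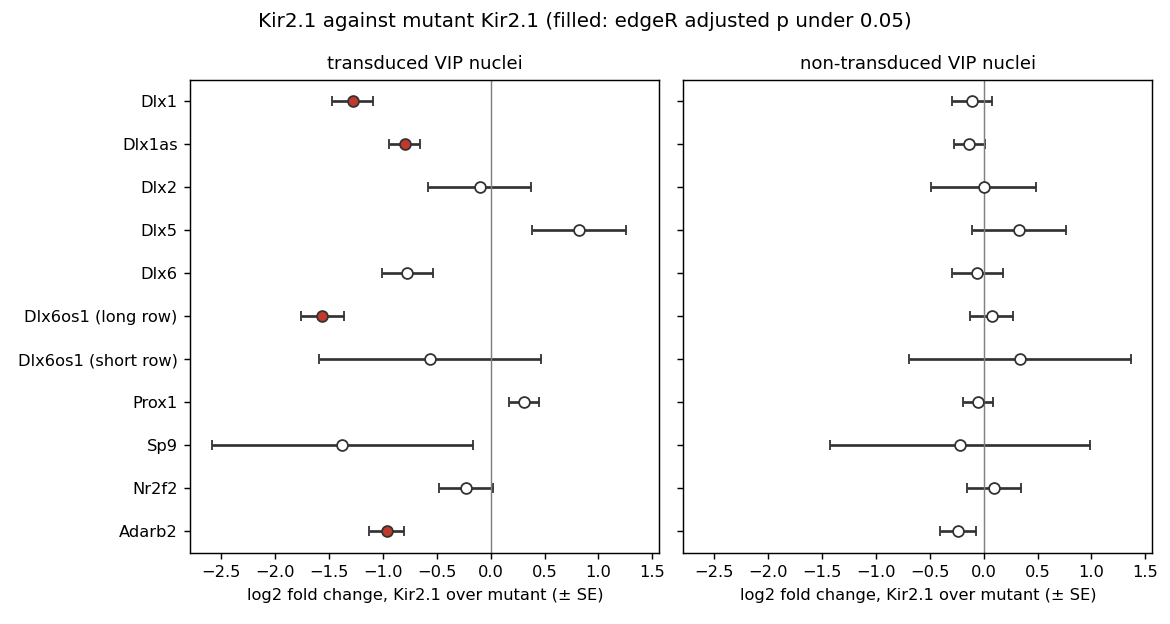
Log2 fold change of Kir2.1 over mutant for the 11 rows (points, with bars of 1 standard error) in transduced VIP nuclei on the left and non-transduced VIP nuclei on the right; filled points have an edgeR adjusted p under 0.05. On the left 4 points are filled, from −1.56 for the long Dlx6os1 row to −0.80 for Dlx1as; on the right 0 are filled and the short Dlx6os1 row and Sp9 have the widest bars.

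All 4 calls held in each of the 19 fits that left out a library: Dlx1 lay between −1.42 and −1.21, Dlx1as between −0.89 and −0.75, the long Dlx6os1 row between −1.67 and −1.50, and Adarb2 between −1.06 and −0.91. Without the 3 libraries that stand apart, Dlx1 was at −1.35, Dlx1as at −0.85, the long Dlx6os1 row at −1.75 and Adarb2 at −0.92, all past the threshold. Gad1 plus Gad2, the GABA-synthesising enzymes, summed to 550 ± 106 CPM with Kir2.1 and 818 ± 133 CPM with the mutant. Neither enzyme passed alone (Gad1 log2 −0.59 ± 0.17 SE, adjusted p = 0.0556; Gad2 −0.48 ± 0.14 SE, adjusted p = 0.0570). Per 100 CPM of Gad1 plus Gad2, a measure added after the data were seen and given without a test, Dlx1 averaged 6.56 ± 2.01 with Kir2.1 and 10.9 ± 1.71 with the mutant, and the long Dlx6os1 row 28.3 ± 8.94 and 53.8 ± 12.4. The ratio of the mutant to the Kir2.1 mean was 1.66 for Dlx1, 1.90 for the long Dlx6os1 row, 1.34 for Adarb2 and 1.17 for Dlx1as. In non-transduced VIP nuclei Gad1 plus Gad2 was lower than in the mutant transduced group, at 703 ± 116 CPM in Kir2.1 mice and 675 ± 136 CPM in mutant mice. Per 100 CPM of that sum, Dlx1 averaged 13.8 ± 1.86 and 16.4 ± 5.10 there, both above the mutant transduced mean. On that scale Prox1 averaged 46.0 ± 15.4 in Kir2.1 transduced and 25.2 ± 7.47 in mutant transduced VIP nuclei.

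Markers of other cells were measured beside these results. The summed level of 13 excitatory markers was 901 to 1503 CPM in Kir2.1 transduced VIP nuclei and 536 to 682 CPM in mutant transduced VIP nuclei, so that every Kir2.1 library lay above every mutant library. Camk2a alone passed among them (985 ± 166 CPM with Kir2.1 and 538 ± 48.1 CPM with the mutant, log2 0.89 ± 0.12 SE, adjusted p = 1.52e-06). The other 12 summed to 52.8 to 230 CPM with Kir2.1 and 43.1 to 88.1 CPM with the mutant, against 1290 to 1654 CPM in Kir2.1 transduced neurons and 1465 to 2038 CPM in mutant transduced neurons. The 7 astrocyte markers summed to 89.3 to 198 CPM with Kir2.1 and 160 to 256 CPM with the mutant, and Slc4a4 was the 1 of 7 that was lower. The median log2 fold change of these 7 markers was positive (0.43), so the sum and the median differ in direction. None of the 6 oligodendrocyte or 6 microglial markers passed. No marker of these 4 lists was at 0 in all libraries of either group, and their part in the results was not tested.

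Other genes of interneuron identity, from lists chosen with earlier results of these data known, were tested in the same fit. Of 21 other interneuron transcription factors tested, 0 changed (median log2 fold change −0.09), where 1.39% of all 21207 genes tested changed. Counts of 0 in lists this short, here and below, lie near that share. Of the 6 tested genes of GABA synthesis, packaging and uptake, 0 changed. Of 13 tested genes linked to Dlx function in interneuron migration and differentiation, 0 changed (median −0.30), and neither did any of 5 tested COUP-TF and Prox partners or 5 tested A-to-I editing enzymes. Of 17 tested markers of caudal-derived interneurons, 5 were lower: the neuropeptide genes Vip, Crh, Penk, Cck and Pnoc. Penk, which encodes proenkephalin, averaged 134 ± 61.7 CPM with Kir2.1 and 557 ± 279 CPM with the mutant (log2 −2.05 ± 0.30 SE, adjusted p = 1.03e-05), and Crh, which encodes corticotropin-releasing hormone, 23.0 ± 17.5 and 140 ± 89.2 CPM (log2 −2.59 ± 0.43 SE, adjusted p = 0.000104). Of 13 medial-derived markers, the potassium channel gene Kcnc1 was higher and Cort and Kcnc2 were lower.

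**Figure D4:**
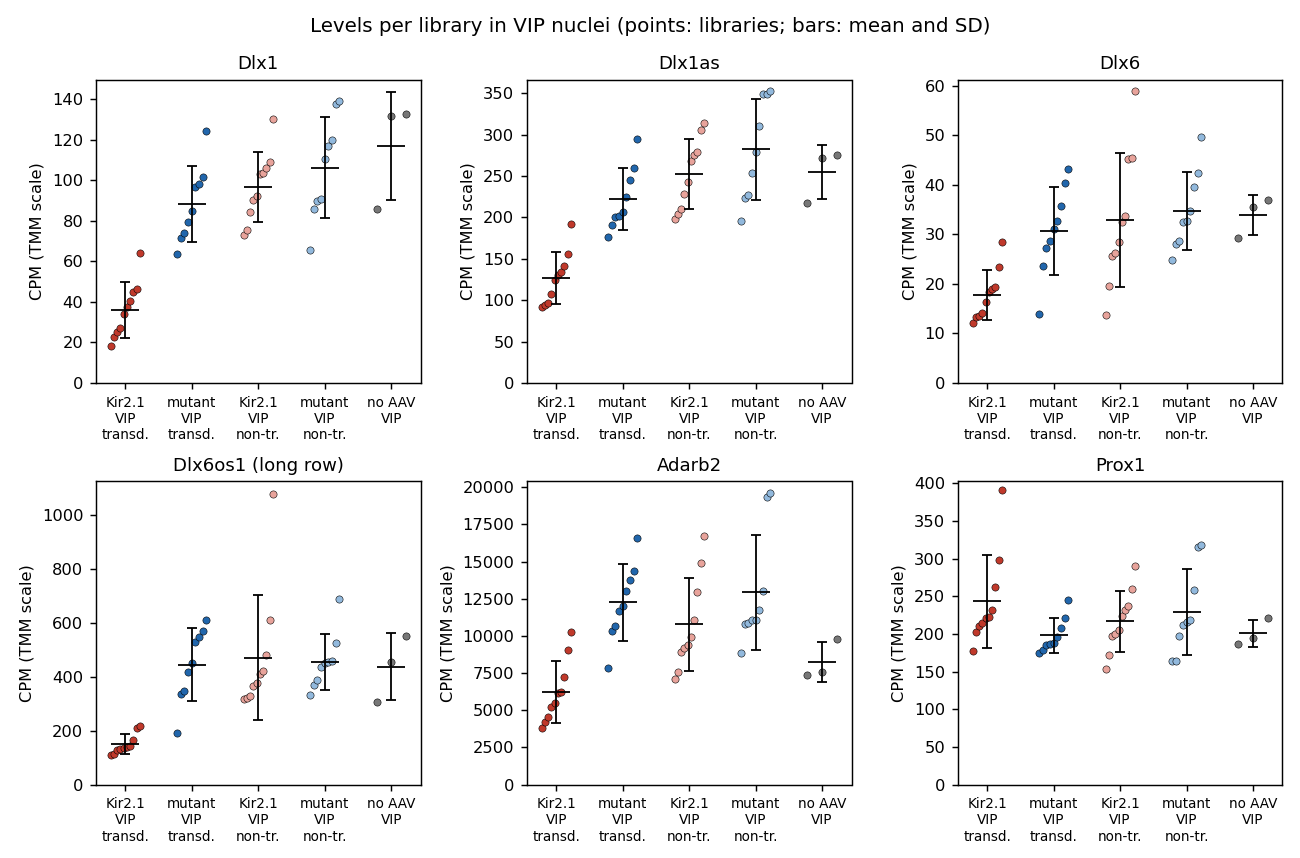
CPM of 6 rows in each library (points) of the 5 groups of VIP nuclei, with the mean and SD as bars; axes start at 0. The Kir2.1 transduced libraries of Dlx1, Dlx1as and the long Dlx6os1 row sit below all non-transduced and no-AAV libraries, while the Prox1 groups overlap.

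In non-transduced VIP nuclei of the injected mice, 0 of 11 rows passed between Kir2.1 and mutant, where 0% of 21207 genes passed (1843 had an unadjusted p under 0.05, and DESeq2 called 14). Dlx1 averaged 96.7 ± 17.2 CPM in Kir2.1 mice and 106 ± 24.9 CPM in mutant mice (log2 −0.11 ± 0.18 SE, adjusted p = 0.934). The long Dlx6os1 row averaged 472 ± 231 and 457 ± 104 CPM (log2 0.07 ± 0.20 SE, adjusted p = 0.965), and Adarb2 10775 ± 3146 and 12932 ± 3851 CPM (log2 −0.24 ± 0.16 SE, adjusted p = 0.744). Both comparisons of VIP nuclei were made in one fit with a shared estimate of spread, so their standard errors are alike by design. Estimates of Dlx1as, Dlx2, Dlx5, Dlx6, the short Dlx6os1 row, Prox1, Sp9 and Nr2f2 lay between −0.22 for Sp9 and 0.34 for the short Dlx6os1 row (log2, adjusted p of 0.873 or more), and all these groups overlap. In all non-transduced nuclei 0 of 8 tested rows passed, with 0% of 21362 genes called, 1289 genes at an unadjusted p under 0.05, and 2 called by DESeq2. Dlx1as had the smallest unadjusted p there (0.0403), at 42.1 ± 8.42 CPM in Kir2.1 mice and 30.3 ± 8.03 CPM in mutant mice. Estimates of Dlx1, Dlx5, Dlx6, the long Dlx6os1 row, Prox1 and Nr2f2 lay between 0.12 and 0.94 and that of Adarb2 was −0.63 (log2, adjusted p of 0.904 or more). Dlx2, Sp9 and the short Dlx6os1 row did not pass the filter on low counts.

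Within Kir2.1 mice, transduced VIP nuclei differed from non-transduced VIP nuclei in the same 4 rows, all lower, where 0.769% of genes changed and 0.599% were lower. Dlx1 averaged 36.0 CPM in transduced and 96.7 CPM in non-transduced nuclei (log2 −1.41 ± 0.18 SE, adjusted p = 8.44e-07). The long Dlx6os1 row was 3.12-fold lower (log2 −1.64 ± 0.20 SE, adjusted p = 1.36e-07), Dlx1as 1.98-fold (log2 −0.98 ± 0.14 SE, adjusted p = 1.01e-05) and Adarb2 1.72-fold (log2 −0.78 ± 0.16 SE, adjusted p = 0.00434). For Dlx1, Dlx1as and the long Dlx6os1 row, every transduced library lay below every non-transduced library, which held for 0.127% of all genes and, with transduced nuclei lower, for 0.0896%. Dlx6 missed the threshold here as well (log2 −0.87 ± 0.23 SE, adjusted p = 0.0542) and passed with DESeq2 (adjusted p = 0.00836), with size factors of relative log expression (0.0477) and without the libraries that stand apart (0.0439). It also passed in 6 of the 20 fits that left out a library (adjusted p = 0.0235 to 0.0495), those without non-transduced replicates 1, 2, 9 or 10 or transduced replicates 3 or 8. Dlx2, Dlx5, Prox1, Sp9, Nr2f2 and the short Dlx6os1 row had estimates between −1.47 for the short Dlx6os1 row and 0.74 for Dlx5 (log2, adjusted p of 0.660 or more). Without those libraries the 4 rows kept their calls, at −1.48 for Dlx1, −1.04 for Dlx1as, −1.78 for the long Dlx6os1 row and −0.79 for Adarb2.

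Within mutant mice, 0 of 11 rows differed between transduced and non-transduced VIP nuclei, where 2 of 21207 genes, 0.00943%, changed. The Dlx1 estimate was −0.24 ± 0.19 SE (log2), that of the long Dlx6os1 row −0.01 ± 0.20 SE and that of Adarb2 −0.05 ± 0.17 SE. Dlx1as had the one unadjusted p under 0.05 (0.0368; log2 −0.32 ± 0.15 SE). Estimates of Dlx2, Dlx5, Dlx6, Prox1, Sp9, Nr2f2 and the short Dlx6os1 row lay between −0.57 for the short Dlx6os1 row and 0.39 for Sp9 (log2, unadjusted p of 0.207 or more). The difference between both contrasts was tested as the interaction of vector and transduction, which passed for 0.401% of genes and was negative in 0.278%. It passed for Dlx1 (log2 −1.17 ± 0.26 SE, adjusted p = 0.0263) and the long Dlx6os1 row (log2 −1.63 ± 0.28 SE, adjusted p = 0.000941). Dlx1as (−0.66 ± 0.21 SE, adjusted p = 0.157) and Adarb2 (−0.73 ± 0.23 SE, adjusted p = 0.188) did not pass. With the library number within each vector as a block, an alternative added after the data were seen, Adarb2 passed (−0.76 ± 0.13 SE, adjusted p = 0.000444). The estimates of Dlx2, Dlx5, Dlx6, Prox1, Sp9, Nr2f2 and the short Dlx6os1 row lay between −1.15 for Sp9 and 0.49 for Dlx5 (adjusted p of 0.581 or more). The calls of Dlx1 and the long Dlx6os1 row held in all 38 fits that left out a library, and without the libraries that stand apart (−1.28 for Dlx1 and −1.87 for the long Dlx6os1 row).

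Set against VIP nuclei of mice without AAV, 3 of 11 rows were lower in Kir2.1 transduced VIP nuclei, among 0.222% of genes changed and 0.151% lower. The comparison shares the Kir2.1 libraries with those above. Dlx1 ran from 18.2 to 64.1 CPM in Kir2.1 transduced VIP nuclei, all below the 86.0, 132 and 132 CPM of the libraries without AAV (log2 −1.69 ± 0.24 SE, adjusted p = 2.70e-05). The long Dlx6os1 row was lower by a like amount (log2 −1.54 ± 0.26 SE, adjusted p = 0.000669), and Dlx1as was lower (log2 −0.996 ± 0.20 SE, adjusted p = 0.00591). The Dlx1as call ended without NoAAV VIP replicate 1 (adjusted p = 0.0762) or replicate 2 (0.0935). Without the libraries that stand apart the 3 rows were at −1.73 for Dlx1, −1.63 for the long Dlx6os1 row and −1.04 for Dlx1as, all past the threshold. Adarb2 did not pass (6223 ± 2090 CPM with Kir2.1 and 8237 ± 1336 CPM without AAV, log2 −0.40 ± 0.23 SE, adjusted p = 0.576). Dlx6 averaged 17.8 ± 5.08 CPM with Kir2.1 and 34.0 ± 4.05 CPM without AAV, and its groups do not overlap, but it did not pass (log2 −0.92 ± 0.32 SE, adjusted p = 0.358). The estimates of Dlx5 (0.57), Nr2f2 (0.46) and Prox1 (0.28) were positive and those of Sp9 (−0.64) and the short Dlx6os1 row (−1.54) negative, none past the threshold (log2, adjusted p of 0.697 or more). All genes tested had a median log2 fold change of 0.10 here. Mutant transduced VIP nuclei gave 0 of 11 rows against no AAV, where 0.0283% of genes changed. Adarb2 averaged 12250 ± 2561 CPM with the mutant and 8237 ± 1336 CPM without AAV (log2 0.57 ± 0.25 SE, adjusted p = 0.537). Estimates of Dlx1, Dlx1as, Dlx5, Dlx6, both Dlx6os1 rows, Prox1, Sp9 and Nr2f2 lay between −0.97 for the short Dlx6os1 row and 0.74 for Sp9 (log2, adjusted p of 0.548 or more). Dlx2 ran from 0.227 to 14.5 CPM in Kir2.1 transduced and from 3.06 to 17.1 CPM in mutant transduced VIP nuclei, all below the 18.2, 21.1 and 34.1 CPM of the libraries without AAV, but neither contrast passed (adjusted p = 0.378 for Kir2.1 and 0.534 for the mutant). In non-transduced VIP nuclei Dlx2 averaged 8.56 ± 5.89 CPM in Kir2.1 mice and 8.78 ± 4.97 CPM in mutant mice. Those groups were not tested against no AAV. Groups that do not overlap, with the transduced one lower, were seen for 0.759% of genes with Kir2.1 and 1.13% with the mutant. The no-AAV libraries are all male; with sex as a covariate, which the injected libraries of both sexes allow to be estimated, Dlx1, Dlx1as and the long Dlx6os1 row kept their calls.

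Transduced neurons, labelled by the Syn1 vector without regard to VIP, hold the same transcripts at low levels. Of 11 rows, 5 passed the filter on low counts, and 2 of these were lower with Kir2.1 than with the mutant, where 5.63% of 15949 genes changed and 3.45% were lower. The long Dlx6os1 row had 0.575, 2.84 and 14.3 CPM with Kir2.1 (lowest, median, highest), against 8.64, 24.3 and 38.9 CPM with the mutant. A single Kir2.1 library, replicate 10, lay inside the mutant range, and the others held at most 4.10 CPM. The averages were 3.87 ± 4.38 and 23.9 ± 9.03 CPM (n = 8 each), 6.19-fold lower (log2 −2.63 ± 0.48 SE, adjusted p = 0.000841). Adarb2 had 24, 56.0 and 94.4 CPM with Kir2.1, against 68.2, 203 and 521 CPM with the mutant, 4.38-fold lower (log2 −2.13 ± 0.36 SE, adjusted p = 0.000481). The mutant libraries of Adarb2 spread over a wide range, and 6 of 8 Kir2.1 libraries lay below all of them. Both calls held in all 16 fits that left out a library.

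Prox1 was at 0 counts in 6 of 8 Kir2.1 neuron libraries and at 2.31 and 2.46 CPM in the other two, against 1.37, 3.65 and 7.61 CPM (lowest, median, highest) with the mutant. The difference did not pass (log2 −2.74 ± 0.95 SE, adjusted p = 0.0912), but passed without Kir2.1 neurons replicate 6 (adjusted p = 0.0402) or replicate 8 (0.0416), the 2 libraries with Prox1 counts. Dlx1 was at 0 in 3 of 8 Kir2.1 libraries and averaged 0.913 ± 1.17 CPM, against 3.04 ± 1.39 CPM with the mutant (log2 −1.70 ± 0.83 SE, adjusted p = 0.269). The Dlx1as groups overlap, at 30.9 ± 4.19 CPM with Kir2.1 and 32.4 ± 5.06 CPM with the mutant (log2 −0.05 ± 0.19 SE, adjusted p = 0.927). Metap1d, which overlaps Dlx1as, averaged 87.6 ± 19.2 and 66.2 ± 13.8 CPM in the same libraries, and its part in the Dlx1as values was not tested. Dlx2, Dlx5, Dlx6, the short row of Dlx6os1, Sp9 and Nr2f2 did not pass the filter, with group averages of at most 1.75 CPM.

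**Figure D5:**
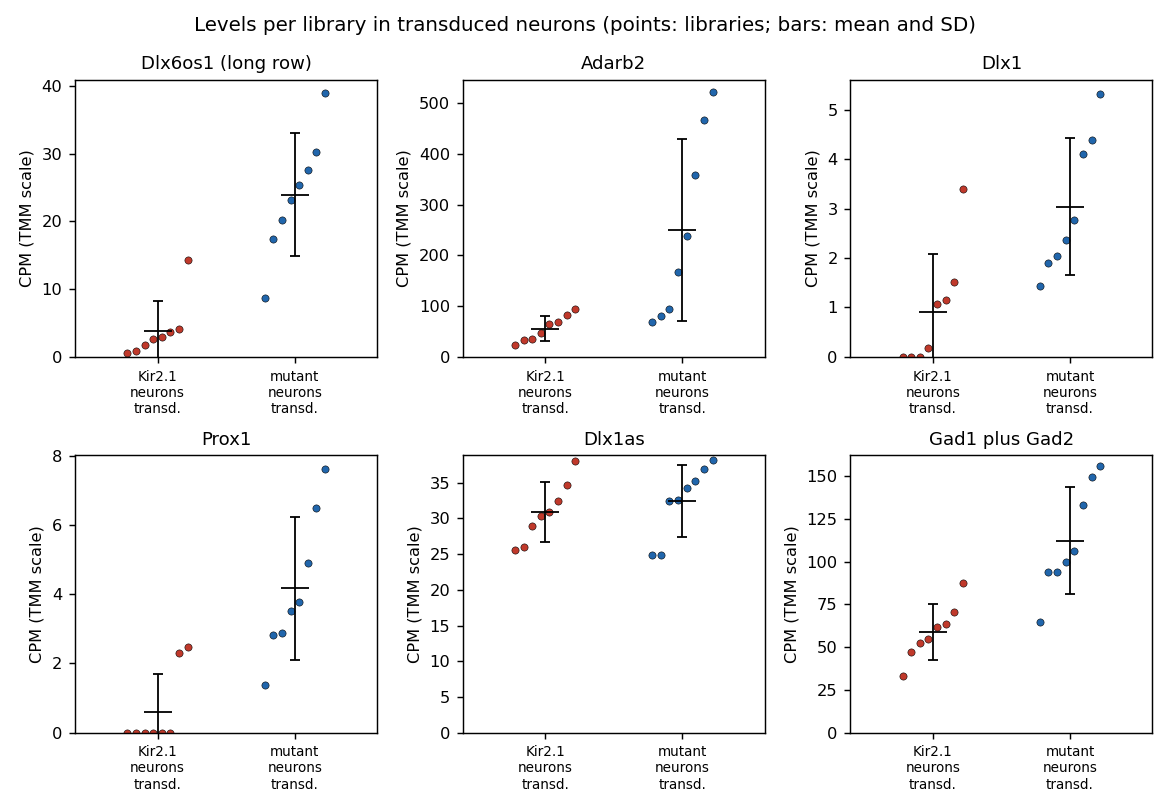
CPM in each library (points) of Kir2.1 transduced neurons on the left of each panel and mutant transduced neurons on the right, with the mean and SD as bars cut off at 0; axes start at 0. The long Dlx6os1 row, Adarb2, Dlx1, Prox1 and the sum of Gad1 and Gad2 have lower means with Kir2.1, while the Dlx1as groups overlap.

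Gad1 was also lower in these libraries. It averaged 37.4 ± 10.6 CPM with Kir2.1 and 73.6 ± 21.3 CPM with the mutant (log2 −0.96 ± 0.21 SE, adjusted p = 0.00520). Gad2 did not pass (log2 −0.83 ± 0.30 SE, adjusted p = 0.118). The summed level of 4 GABAergic markers was 47.7 to 152 CPM with Kir2.1 and 108 to 277 CPM with the mutant. Of these 4 markers, 2 were lower and 0 higher. Of 6 tested genes of GABA synthesis, packaging and uptake, 2 were lower and 0 higher. The 13 excitatory markers summed to 2011 to 2759 CPM with Kir2.1 and 2424 to 2866 CPM with the mutant. How much of the Dlx6os1 and Adarb2 difference goes with the share of interneuron nuclei was not tested. As a description, per 100 CPM of Gad1 plus Gad2 the long Dlx6os1 row averaged 6.44 ± 6.07 with Kir2.1 and 22.5 ± 9.77 with the mutant, and Adarb2 105 ± 59.4 and 234 ± 179. Of 16 other interneuron transcription factors tested, Etv1 was lower (20.3 ± 7.85 CPM with Kir2.1 and 66.4 ± 24.1 CPM with the mutant, adjusted p = 0.000172). Of 7 caudal-derived markers tested, Reln and Lamp5 were lower. Of 5 tested COUP-TF and Prox partners 1 was lower, and of 10 tested medial-derived markers 1 was higher. Over all genes tested in neurons, 5.63% changed.

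Whether the difference between Kir2.1 and mutant itself differed between VIP nuclei and neurons was tested as the interaction of vector and population over the transduced libraries, where 0.316% of 18359 genes passed and 0.202% were positive. It passed for Prox1 alone among the 9 rows tested (log2 3.04 ± 0.57 SE, adjusted p = 0.00430). Prox1 averaged 243 ± 61.4 CPM in Kir2.1 and 198 ± 22.7 CPM in mutant VIP nuclei, and 0.596 ± 1.10 and 4.17 ± 2.06 CPM in Kir2.1 and mutant neurons. The neuron side rests on few counts, with 6 of 8 Kir2.1 libraries at 0. Neither comparison of Kir2.1 with mutant passed alone (adjusted p = 0.361 in VIP nuclei and 0.0912 in neurons). The part played by the share of interneuron nuclei among neurons was not tested. The Prox1 call held in all 35 fits that left out a library and without the libraries that stand apart (3.07, adjusted p = 0.00661). The interaction did not pass for the long Dlx6os1 row (log2 1.13 ± 0.45 SE, adjusted p = 0.463), and passed without Kir2.1 neurons replicate 10 (1.76, adjusted p = 0.0201). For Adarb2 it was 1.21 ± 0.42 SE (adjusted p = 0.305) and for Dlx1 0.45 ± 0.56 SE, neither past the threshold. For Dlx1as it was −0.71 ± 0.21 SE (adjusted p = 0.164), and for Dlx2, Dlx5, Dlx6 and Nr2f2 between 0.62 and 1.26 (adjusted p of 0.943 or more). Sp9 and the short Dlx6os1 row did not pass the filter in that fit.

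The likeness of other genes was measured as Pearson's r of the mean log2(CPM + 1) over the 10 groups, a description that follows mostly the contrast of VIP nuclei with the rest. Penk was most like Dlx1 (r = 0.996), followed by A830012C17Rik, Dnah7b, Nrip3 and Glra2. Arl4c (0.993), Egfr, Gad2, Penk and Gfpt2 were most like the long Dlx6os1 row. Glra2 (0.998), Fstl5, Gm48259, Erbb4 and Egfr were most like Adarb2. Zfp536 (0.996), Sox2ot, Sall1, Htr4 and Dock11 were most like Prox1. For Dlx1, 534 genes had r over 0.9, and for Prox1 330. Among the 11 rows, Dlx1 and the long Dlx6os1 row had r = 0.990 and Dlx1 and Adarb2 0.989, while Sp9 had at most 0.667 with Dlx1, the long Dlx6os1 row, Prox1 and Adarb2.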

How the data were processed

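The members and the lists were chosen with earlier results of these data known. The authors deposited raw counts per gene, 1 table of 55335 genes and 79 libraries; all 79 columns matched a library title and 0 were left over. Per the labels' protocols, 50 to 100 nuclei were sorted into lysis buffer, reverse transcribed from oligo-dT primers, amplified by 17 PCR cycles and made into libraries with Nextera XT. No molecular identifiers were used, so PCR copies are counted, and oligo-dT priming of nuclei also captures unspliced RNA. Per the submitters' processing notes, cutadapt 1.18, STAR 2.5.3a, HOMER 4.9.1 and mm10 were used; the annotation and strand setting are not given in the sources used here. Gene identifiers were matched to GENCODE vM21 (55154 matched, 181 did not).

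Genes were tested in R 4.3.3 with the quasi-likelihood F test of edgeR 4.0.16 on TMM-scaled counts, after filterByExpr (min.count 10, min.total.count 15), in separate fits of VIP nuclei, neurons, all nuclei, VIP against all nuclei with vector as a covariate, and transduced libraries. The adjusted p is Benjamini-Hochberg over all genes of a fit's comparison, threshold 0.05; SE is the log2 fold change divided by the square root of F. The test was checked on simulated counts, drawn for independent libraries with the fitted spread. Such counts cannot show an effect of shared animals or of PCR copies. The rule names every listed member in every comparison, alone or in a stated range. Other genes that pass are named at most 5 per list, and some that passed are given as counts only. For likeness the 5 with the highest r are named. Alternatives were DESeq2 1.42.0, relative log expression size factors, no filter, sex as a covariate, the replicate number as a block, leaving out libraries that stand apart, and leaving out each library. Library numbers are shared across groups, but no label ties them to animals.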

Additional observations from a re-analysis of the deposited data

Results flagged for a closer look

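For normally spread values, about 1 in 20 groups would have a library far from the others by chance. That rate does not hold for rows near 0, where a single library with a count is flagged. Of 86 groups of a row and a condition, 18 had a library far from the others. In VIP nuclei these were the long Dlx6os1 row in Kir2.1 non-transduced replicate 4 (1078 CPM, next 613), and in Kir2.1 non-transduced replicate 9 the short Dlx6os1 row (7.08 CPM) and Nr2f2 (70.3 CPM); replicate 9 is a library that correlated least with its group. In transduced neurons with Kir2.1 they were the long Dlx6os1 row in replicate 10 (14.3 CPM, next 4.10), Dlx1 in replicate 8 (3.39 CPM), Dlx2 (0.287 CPM, 2 counts) and Sp9 (1.29 CPM) in replicate 4, and the short Dlx6os1 row in replicate 3 (0.460 CPM, 3 counts). With the mutant they were Dlx2 in replicate 5 (0.686 CPM) and Nr2f2 in replicate 6 (5.87 CPM). In all non-transduced nuclei of Kir2.1 mice they were Dlx2 (1.12 CPM) and Dlx6 (5.59 CPM) in replicate 6, Dlx5 in replicate 1 (10.9 CPM), Sp9 in replicate 2 (1.36 CPM) and Adarb2 in replicate 8 (643 CPM). In mutant mice they were Dlx2 in replicate 7 (4.97 CPM), the long Dlx6os1 row in replicate 9 (42.0 CPM) and Adarb2 in replicate 1 (1118 CPM). In each case the library stood above its group.

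By a test of the interaction, the response to transduction in VIP nuclei differed for Dlx1 (log2 −1.17) and the long Dlx6os1 row (log2 −1.63). Both were lower with Kir2.1 than with the mutant. The interaction of vector and population passed for Prox1 (log2 3.04), which averaged only 0.596 ± 1.10 CPM in Kir2.1 transduced neurons.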

How the results depend on the processing

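Log2 fold changes of the 11 rows that passed kept their sign under every alternative run, and all 11 rows kept their side of the threshold without a filter, with sex as a covariate and with the replicate block. Some estimates that had not passed changed sign, among them Nr2f2 and Dlx2 in VIP nuclei, Sp9 and the long Dlx6os1 row against no AAV, and Adarb2, Prox1, Nr2f2 and the long Dlx6os1 row in all non-transduced nuclei. Rows changed side in 2 cases with DESeq2, 1 with relative log expression size factors, 2 without the libraries that stand apart, and in the fits that left out 1 library in 10 cases that gained a call (7 of Dlx6, 2 of Prox1 and 1 of the long Dlx6os1 row) and 2 that lost one (Dlx1as), all given above. With the replicate number within each vector as a block, Adarb2 passed the interaction of vector and transduction, as given above. Same-numbered libraries of a vector deviated together more often than those of different vectors. Within a vector their correlation was −0.13 to 0.65 (median 0.114) in 108 pairs, with 63 over 0.1, 60 best with their own number and 99 of the same sex label. Between vectors it was −0.20 to 0.46 (median 0.0053) in 175 pairs, with 22 over 0.1, 36 best with their own number and 84 of the same sex label. Since no label says that a number marks a mouse and not every pair was over 0.1, the block stayed an alternative.

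Counts of all genes called moved more. DESeq2 called 1388 in neurons between Kir2.1 and mutant, 14 and 2 in non-transduced VIP and all nuclei, 155 for Kir2.1 and 63 for the mutant against no AAV, and 103 for the interaction with population. The replicate block gave 526 in neurons, 39 for the interaction with transduction, 79 and 34 against no AAV, and 38 for the interaction with population; within vector it gave 5 for transduction with the mutant. Without a filter the interactions called 719 with transduction and 274 with population. Leaving out single libraries gave 219 to 429 genes and 4 to 5 of the rows in transduced VIP nuclei, 639 to 1062 and 2 to 3 in neurons, 0 and 0 in both non-transduced comparisons, 116 to 195 and 4 to 5 for transduction with Kir2.1, 2 and 0 with the mutant, 48 to 112 and 2 for the interaction with transduction, 17 to 47 and 2 to 3 for Kir2.1 and 1 to 6 and 0 for the mutant against no AAV, 7232 to 7788 and 10 for VIP against all nuclei, and 36 to 61 and 1 to 2 for the interaction with population. Rows under about 1 CPM, Sp9 and the short Dlx6os1 row, are limited by depth.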
